A study of Mus musculus with 7 samples.

Results

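Kinesins, centromere proteins and the kinases of the mitotic spindle were followed across 7 mouse expression arrays. Members were genes whose symbol in the platform's probe annotation starts with Kif, Cenp, Aurk, Plk and a digit, Bub1, Ndc80, Nuf2, Spc24 or Spc25, or is Top2a, Birc5, Cdc20 or Foxm1, with a probe above background on at least 1 array. Above background means a detection p-value, the chance of so bright a signal from the array's negative controls, under 0.01. Mki67, Aurkb and Cenpf, which the rule would also take, were not analysed here. The rule took 63 genes with 103 probes, of which 50 genes with 71 probes were above background, among 9263 genes tested in all. The arrays, 1 per RNA sample, held cells of the OG2 strain, whose mice carry a fluorescent reporter under Pou5f1 regulatory sequence, so marrow and all cultures share that transgene. LinNeg_BM was lineage-negative bone marrow (1 array), the fraction left when cells bearing mature blood markers are removed. ESC was a control embryonic stem cell culture (1 array). LinNeg_iPSC comprised induced pluripotent stem cell (iPSC) lines 1.1.2, 7 and 9 derived from such marrow (3 arrays), LinPos_iPSC line 1.1 derived from lineage-positive marrow (1 array), and MEF_iPSC iPSCs derived from embryonic fibroblasts (1 array). The tissue label reads bone marrow for all 7 samples, and samples were grouped by their cell type label. Age, passage, reprogramming vector and the number of donor animals are not given in the sources used here, so p-values measure only the spread between these 3 lines, which may be technical, and leave out the spread between marrow preparations.

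Kinesins are motor proteins that walk along microtubules. Those of the mitotic group build the spindle, move and align chromosomes and complete cell division, whereas the transport group carries vesicles, organelles and the cargo of cilia. Cenp proteins form the centromere and its kinetochore, to which spindle fibres attach, and the Aurora and Polo kinases time entry into mitosis, correct faulty attachments and drive exit. Transcripts of the mitotic members generally peak late in the cell cycle and so follow the share of dividing cells. In bulk samples such as these, fewer cells of a type and less RNA per cell cannot be told apart.

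Arrays were alike in quality, with 10423 to 10904 of 25697 probes above background. Cell identity matched the labels: LinNeg_BM had signal above background for 1 of 10 pluripotency markers and each culture for 9 or 10, while all 11 measured blood markers passed in LinNeg_BM and 2 or 3 in each culture, with Ptprc, Spi1 and Mpo at background there. Of 8 measured fibroblast or feeder markers 3 passed in LinNeg_BM and 6 to 8 in the cultures, with the highest summed intensity in line 7, and of 7 extraembryonic endoderm markers 0 and 5 to 7 did. Their part in the members' values was not tested. Values are normalized log2 intensities, means ± SD are over the 3 lines (n = 3), and every other group is 1 array without replicates. A probe's brightness depends on its sequence, so levels are compared between arrays and not between genes.

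The first question was how the lines compared with the kind of marrow they were derived from. Against LinNeg_BM 16 members rose and 5 fell (limma, adjusted p under 0.05), while 29 did not pass. Across all genes tested 59.6% passed, 29.6% higher and 29.9% lower in the lines, so the share of members past the test was below the background. At an unadjusted p under 0.05 there were 23 members, beside 64.5% of all genes. The median absolute log2 difference was 0.48 over members and 0.83 over all genes, and 12 members differed by at least 2-fold, beside 42.6% of all genes. Among genes above background on all 7 arrays it was 0.44 for 38 members and 0.65 for 5825 genes. The largest rises were in Plk2, Kif5c, Plk3, Cenpt, Kif3a and Kifap3, of which Cenpt alone is a centromere gene. Of the 33 members other than the transport kinesins, Plk2, Plk3 and Cenpj, 5 differed by at least 2-fold. The direction of small differences depends on the scaling: with arrays scaled to a common median the median of all genes moved from 0.02 to -0.39 and that of the members from 0.19 to -0.30. Under that scaling 10 members rose and 15 fell, and over all genes 1989 rose and 3998 fell, in place of 2745 and 2773. Called the same way under all 12 other settings tried were Plk2, Plk3, Aurka, Cenpt, Kif5c, Kif3a, Kifap3, Kif1a and Kif21a, which rose, and Cenpx, which fell.

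**Figure D1:**
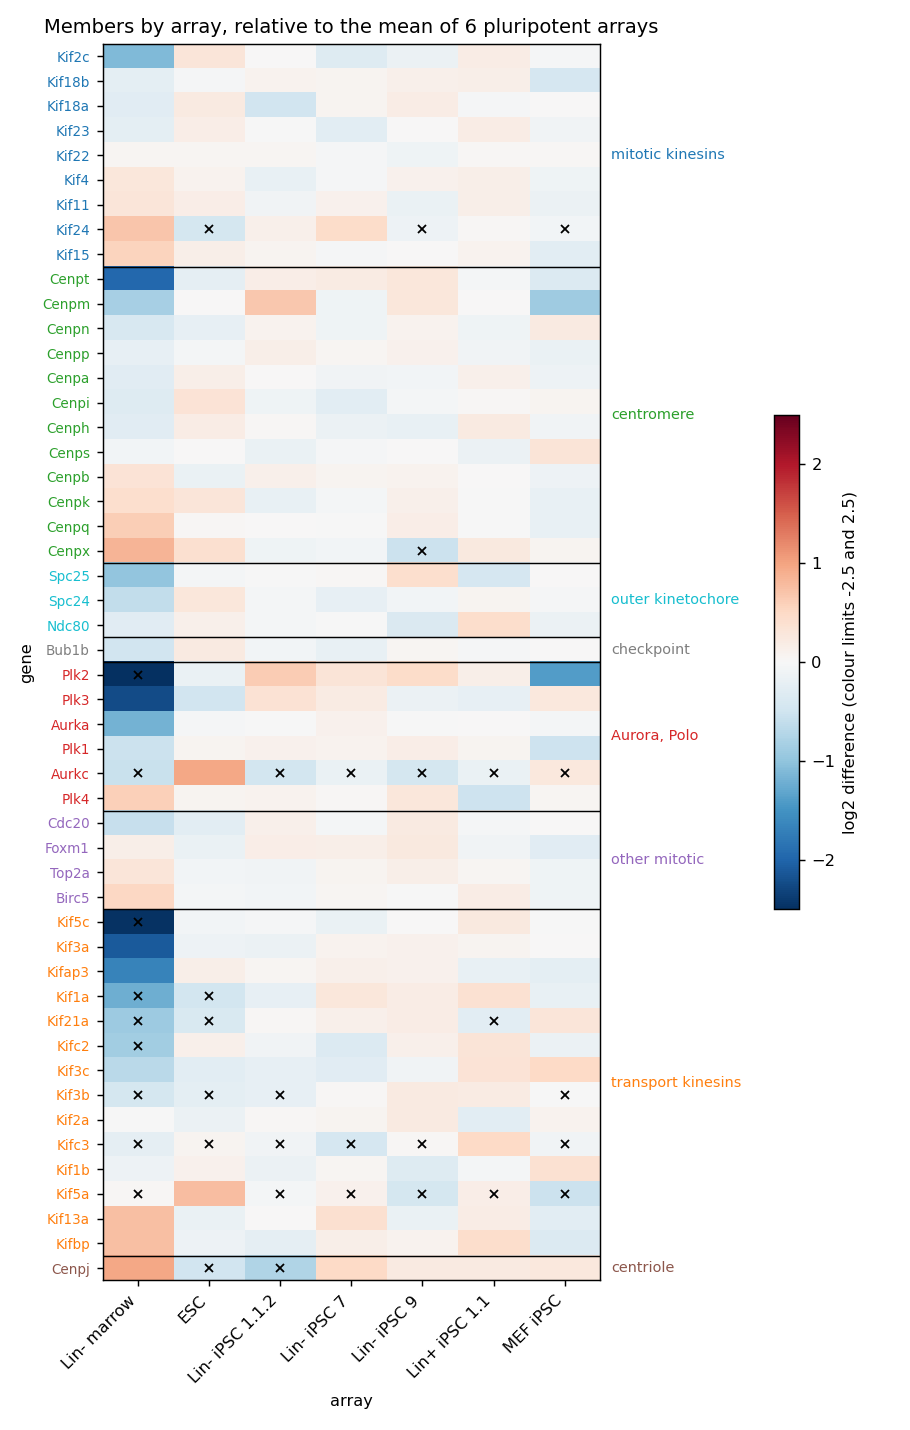
Heat map of the 50 members (rows, grouped and coloured by role) on the 7 arrays (columns). Colour gives the log2 value minus that gene's mean over the 6 pluripotent arrays, and crosses mark values below background; Plk2, Plk3, Cenpt, Kif5c, Kif3a and Kifap3 are dark blue in LinNeg_BM, and among the pluripotent arrays Plk2 and Cenpm are low in MEF_iPSC and Aurkc is high in ESC.

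Of the 10 mitotic kinesins on the array 9 were measured, and 1 rose, 1 fell and 7 did not pass, with a median difference of -0.09. Over all genes tested 29.6% rose and 29.9% fell. Kif2c, a kinesin that takes microtubules apart to correct faulty attachments, stood at 9.49 in LinNeg_BM and at 10.59, 10.27 and 10.45 in lines 1.1.2, 7 and 9. It reached 10.89 in ESC, 10.77 in LinPos_iPSC and 10.56 in MEF_iPSC. All 6 cultures thus lay above the marrow, and the lines rose 1.93-fold (difference 0.95, SE 0.20, limma adjusted p = 0.0103), though at 0.29 with arrays scaled to a common median the call was lost (adjusted p = 0.287). Kif15, a spindle kinesin that helps hold poles apart, went the other way, from 10.40 in LinNeg_BM to 9.91, 9.81 and 9.84 in the lines. It fell by 0.55 (SE 0.16, limma adjusted p = 0.0318), and ESC (9.98), LinPos_iPSC (9.93) and MEF_iPSC (9.57) were also below the marrow. Kif11, the motor that pushes spindle poles apart, differed by -0.35 (SE 0.19, adjusted p = 0.166), Kif23, needed for the final cut between daughter cells, by 0.16 (SE 0.19, adjusted p = 0.5), and Kif18b, which acts at microtubule ends, by 0.35 (SE 0.16, adjusted p = 0.112). Kif24, a centriole-associated kinesin above background in 2 of 3 lines, differed by -0.53 (SE 0.26, limma adjusted p = 0.136). It was counted with the mitotic kinesins, whereas the centriole gene Cenpj was kept apart from the mitotic members. Kif22, a chromosome-arm motor singled out after its values were seen, ranged only from 10.93 to 11.09 over all 7 arrays.

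Among inner centromere genes 12 of 14 were measured, 2 rose, 2 fell and 8 did not pass, with a median of 0.18. Over all genes tested 29.6% rose and 29.9% fell. Cenpt, which links centromeric DNA to the outer kinetochore, stood at 9.64 in LinNeg_BM and at 11.76, 11.80 and 11.88 in lines 1.1.2, 7 and 9. Levels in ESC, LinPos_iPSC and MEF_iPSC were 11.37, 11.55 and 11.26. No culture came near the marrow value, and the lines rose 4.52-fold (difference 2.18, SE 0.16, limma adjusted p = 0.000328). Cenpm, another subunit of the inner kinetochore, measured 7.81 in LinNeg_BM and 9.34, 8.55 and 8.94 in the lines. It rose 2.19-fold (difference 1.13, SE 0.32, limma adjusted p = 0.0307), and 8.67 in ESC and 8.66 in LinPos_iPSC lay in the lines' range. MEF_iPSC, at 7.76, was level with the marrow. The Cenpm call was lost with common-median scaling (difference 0.55, adjusted p = 0.151), with the 6 cultures taken as 1 group (0.84, adjusted p = 0.158), with the authors' log2 values (adjusted p = 0.0555), without a filter on dim probes (adjusted p = 0.0511) and without line 9 (adjusted p = 0.0603). Cenpx, a small histone-fold protein that also serves DNA repair, went from 6.94 in LinNeg_BM to 5.98, 6.0 and 5.55 in lines 1.1.2, 7 and 9, and fell by 1.09 (SE 0.24, limma adjusted p = 0.0128), with line 9 below background. Its values of 6.47, 6.32 and 6.16 in ESC, LinPos_iPSC and MEF_iPSC lay between. Cenpq, of the inner kinetochore, fell by 0.55 (SE 0.17, adjusted p = 0.0384), from 9.00 to a mean of 8.45 ± 0.09 (n = 3). Cenpa, the histone variant that marks the centromere, was 13.54 in LinNeg_BM and 13.77 ± 0.05 (n = 3) in the lines, a difference of 0.23 (SE 0.16, adjusted p = 0.265). The other inner centromere genes that did not pass, Cenpb, Cenph, Cenpi, Cenpk, Cenpn, Cenpp and Cenps, differed by -0.45 (Cenpk) to 0.42 (Cenpn).

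At the outer kinetochore, the face that grips microtubules, 3 of 5 genes were measured. Spc25, a subunit of the Ndc80 complex, stood at 9.19 in LinNeg_BM and at 10.17, 10.21 and 10.60 in lines 1.1.2, 7 and 9, and rose 2.20-fold (difference 1.14, SE 0.23, limma adjusted p = 0.0099). ESC and MEF_iPSC, at 10.13 and 10.19, were close to the lines, and LinPos_iPSC at 9.77 lay below them. With arrays scaled to a common median the Spc25 difference was 0.46 (adjusted p = 0.101). Its partner Spc24 rose by 0.50 (SE 0.17, adjusted p = 0.0483), from 9.01 to 9.51 ± 0.08 (n = 3), and reversed to -0.17 under that scaling. Ndc80, which gives the complex its name, differed by 0.15 (SE 0.21, adjusted p = 0.555). The checkpoint kinase relative Bub1b, which delays anaphase until chromosomes are attached, differed by 0.42 (SE 0.18, adjusted p = 0.095). Bub1, Nuf2 and Cenpe were below background on all 7 arrays.

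**Figure D2:**
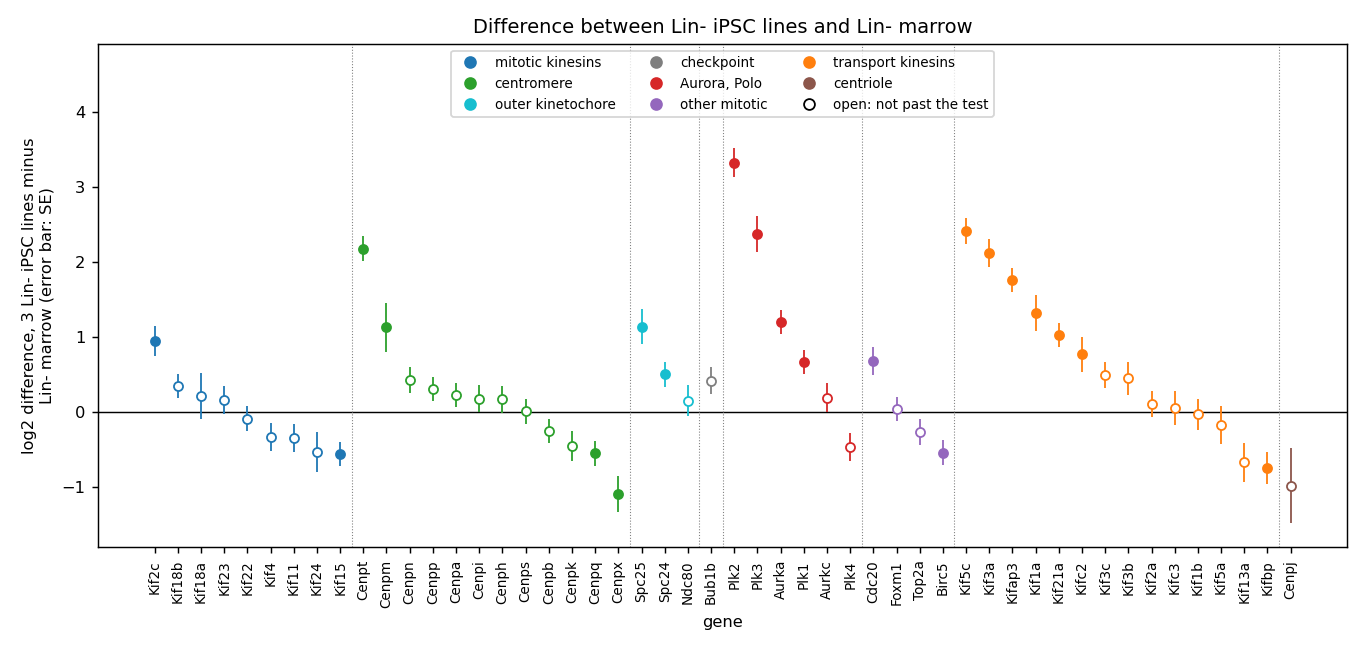
Log2 difference between the mean of the 3 LinNeg_iPSC lines and LinNeg_BM (vertical axis) for each of the 50 members (horizontal axis, grouped by role), with SE from the limma fit. Filled points passed the test; Plk2 (3.32), Kif5c (2.41), Plk3 (2.37), Cenpt (2.18) and Kif3a (2.12) stand highest, and Cenpx (-1.09) is the lowest.

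All 6 Aurora and Polo kinases were measured and 4 rose, beside 29.6% of all genes higher in the lines and 29.9% lower. Plk2, a Polo kinase induced by growth signals and by p53, was below background in LinNeg_BM at 5.15 and stood at 8.64, 8.32 and 8.45 in lines 1.1.2, 7 and 9. ESC had 7.83, LinPos_iPSC 8.13 and MEF_iPSC 6.59. The lines were at least 7.06-fold higher than the marrow, taking the marrow at the lowest value above background on its array (difference as measured 3.32, SE 0.19, limma adjusted p = 0.000155). Across the other settings the measured difference ranged from 2.21 with normexp background correction to 4.22 with the authors' log2 values, so that bound holds on this scale only. Plk3, a stress-responsive relative, was above background everywhere, at 6.11 in LinNeg_BM and 8.69, 8.54 and 8.20 in the lines. It rose 5.15-fold (difference 2.37, SE 0.24, adjusted p = 0.000884), and ESC (7.86), LinPos_iPSC (8.14) and MEF_iPSC (8.60) were all far above the marrow. The kinases that run mitosis itself moved less. Aurka, which matures the spindle poles, stood at 10.34 in LinNeg_BM and at 11.52, 11.62 and 11.50 in the lines, beside 11.48 in ESC, 11.52 in LinPos_iPSC and 11.47 in MEF_iPSC. The marrow was the array apart, and the lines rose 2.30-fold (difference 1.20, SE 0.16, adjusted p = 0.0024). Plk1, the central kinase of mitotic entry and exit, went from 10.59 in LinNeg_BM to 11.25, 11.22 and 11.29 in the lines and rose by 0.67 (SE 0.16, adjusted p = 0.0164). That call was lost at 0.10 with arrays scaled to a common median (limma adjusted p = 0.649). It was also lost with cyclic loess normalization (0.41) and with the 6 cultures taken as 1 group (0.55). Plk4, which starts centriole copying, stood lower in the lines by -0.46 (SE 0.18, limma adjusted p = 0.079). It passed as lower with common-median scaling (-1.04) and with cyclic loess (-0.58). Aurkc, the Aurora kinase known from germ cells, was above background on the ESC array alone.

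**Figure D3:**
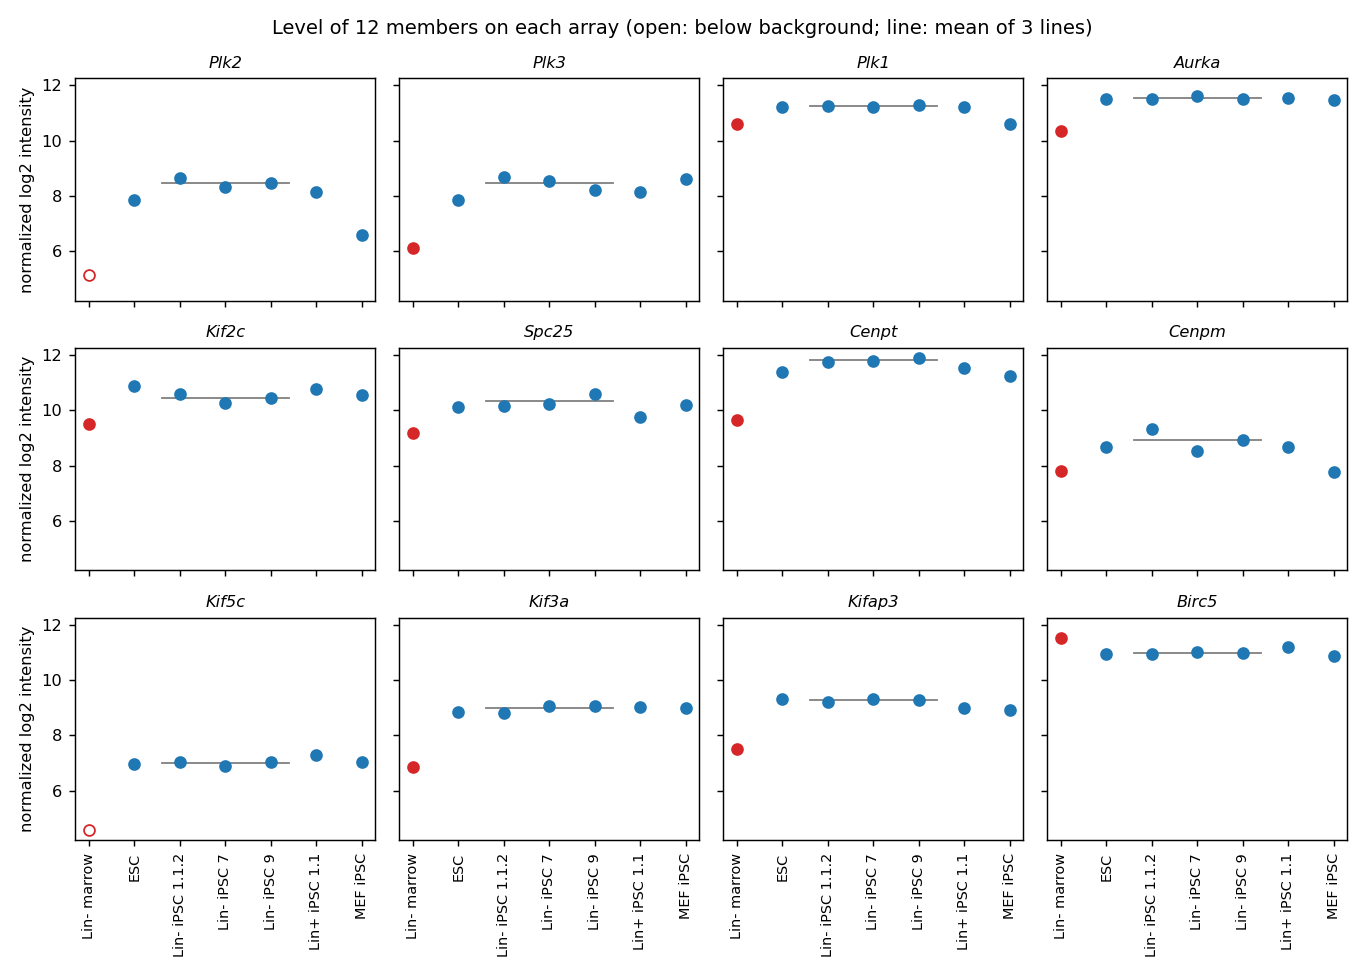
Normalized log2 intensity (vertical axis, shared) of 12 members on each of the 7 arrays (horizontal axis), with LinNeg_BM in red, open circles below background and a grey line at the mean of the 3 lines. The marrow lies below every culture for Plk2, Plk3, Aurka, Kif2c, Spc25, Cenpt, Kif5c, Kif3a and Kifap3 and above them for Birc5, while MEF_iPSC drops to the marrow level for Plk1 and Cenpm.

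The remaining mitotic members named singly were split. Cdc20, the activator of the anaphase-promoting complex, stood at 11.47 in LinNeg_BM and at 12.17, 12.00 and 12.27 in lines 1.1.2, 7 and 9. It rose by 0.68 (SE 0.19, limma adjusted p = 0.0267). The call was lost at 0.20 when arrays were scaled to a common median (limma adjusted p = 0.411) and at 0.42 with cyclic loess. Birc5, or survivin, a subunit of the complex that carries Aurora kinase to the centromere, fell by 0.54 (SE 0.16, adjusted p = 0.0349), from 11.52 to 10.93, 11.03 and 10.97. Both changes were near the threshold, and Birc5 was no longer called in any of the 3 fits that left out a line (adjusted p from 0.0615 to 0.0768). Top2a, the topoisomerase that untangles sister chromatids, differed by -0.26 (SE 0.18, limma adjusted p = 0.252), from 11.87 to 11.61 ± 0.11 (n = 3). It passed as lower with common-median scaling (-0.69). Foxm1, a transcription factor of the G2 and M phases, was 8.83 in LinNeg_BM and 8.87 ± 0.05 (n = 3) in the lines (difference 0.04, adjusted p = 0.85).

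Because mitotic genes are known to share the CHR, an element bound by the DREAM and B-MYB complexes, and CCAAT boxes, bound by NF-Y, RefSeq promoter windows of assembly GRCm38.p6 were searched. Each window runs from 250 bases before to 50 after an annotated transcript start. Of the 50 members 45 had 51 windows. CHR was taken as TTTGAA or TTCGAA and the CCAAT box as CCAAT, on both strands. A CHR match was present in 18 of 34 windows of members other than the transport kinesins, Plk2, Plk3 and Cenpj (52.9%), in 1 of 14 windows of transport and other kinesins (7.14%) and in 19.2% of all 32851 windows. CCAAT was found in 24 of those 34 (70.6%), in 6 of the 14 (42.9%) and in 37.4% of all windows. The 18 mitotic genes with a CHR match had a median difference from marrow of 0.29, ranging from -0.55 to 1.20, with 6 higher and 1 lower past the test. The 13 without one had a median of 0.01, ranging from -1.09 to 2.18, with 1 higher and 3 lower. Across all genes tested 29.6% were higher and 29.9% lower past the test. Of the 6 higher genes with a match, Cdc20, Cenpm, Kif2c, Plk1 and Spc25 were no longer called with arrays scaled to a common median. Whether a CHR match goes with the difference from marrow was not tested. A match is a description of letters and not evidence of binding. The 4 promoters below belong to the kinase and kinetochore genes with the largest differences from marrow among a fixed set, and are shown to set the stress-related Polo kinases beside Aurka and Spc25. Capitals mark CHR, CCAAT and CRE (TGACGTCA) matches.
Aurka promoter, chr2:172370521-172370820, minus strand: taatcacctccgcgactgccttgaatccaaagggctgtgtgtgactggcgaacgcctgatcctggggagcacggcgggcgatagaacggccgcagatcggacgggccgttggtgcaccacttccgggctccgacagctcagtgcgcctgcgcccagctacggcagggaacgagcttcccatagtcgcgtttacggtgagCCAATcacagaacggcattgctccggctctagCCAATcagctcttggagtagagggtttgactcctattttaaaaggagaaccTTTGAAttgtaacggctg
Spc25 promoter, chr2:69206164-69206463, minus strand: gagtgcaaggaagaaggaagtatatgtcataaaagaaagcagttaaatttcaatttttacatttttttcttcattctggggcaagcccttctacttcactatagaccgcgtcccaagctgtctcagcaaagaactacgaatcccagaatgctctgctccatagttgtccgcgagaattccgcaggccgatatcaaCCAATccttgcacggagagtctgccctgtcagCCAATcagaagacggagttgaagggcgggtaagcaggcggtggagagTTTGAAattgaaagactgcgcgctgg
Plk2 promoter, chr13:110394794-110395093, plus strand: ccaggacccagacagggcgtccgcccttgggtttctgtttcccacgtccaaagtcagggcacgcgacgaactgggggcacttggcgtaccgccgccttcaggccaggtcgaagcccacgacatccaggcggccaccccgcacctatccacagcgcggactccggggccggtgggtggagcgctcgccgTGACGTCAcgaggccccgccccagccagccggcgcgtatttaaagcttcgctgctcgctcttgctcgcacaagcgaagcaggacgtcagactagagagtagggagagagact
Plk3 promoter, chr4:117133914-117134213, minus strand: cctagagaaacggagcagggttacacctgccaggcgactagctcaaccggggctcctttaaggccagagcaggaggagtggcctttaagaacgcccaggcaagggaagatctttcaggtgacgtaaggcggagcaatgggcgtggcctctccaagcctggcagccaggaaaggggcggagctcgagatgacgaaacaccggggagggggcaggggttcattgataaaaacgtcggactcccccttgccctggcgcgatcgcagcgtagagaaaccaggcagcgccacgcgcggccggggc
Aurka and Spc25 have the same layout, a pair of CCAAT matches whose starts lie 32 bases apart in both genes, followed by a CHR match that begins 32 bases past the transcript start in Aurka and 24 bases past it in Spc25. Windows of Cdc20, Cenpa, Cenpm, Kif18b and Kif4 also hold 1 CHR and 2 CCAAT matches, and their spacing was not measured. Of these, Cenpa, Kif18b and Kif4 did not pass against marrow. The Plk2 window holds neither CHR nor CCAAT and has a CRE match, the element bound by CREB, found in 1.79% of all windows. Among members a CRE match was in 4 of the 51 windows (7.84%), the others being those of Kif18a, Kif5c and Ndc80. Kif5c rose against marrow, whereas Kif18a and Ndc80 did not pass. The Plk3 window holds none of the 3 motifs. No window of a member held the CArG box of serum response factor, which 1.63% of all windows hold.

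Of 14 transport and other kinesins measured (21 on the array) 6 rose, 1 fell and 7 did not pass, with a median of 0.47. Of all genes tested 59.6% passed, 29.6% higher and 29.9% lower in the lines. Kif5c, a conventional kinesin heavy chain best known from neurons, was below background in LinNeg_BM at 4.58 and stood at 7.03, 6.89 and 7.05 in lines 1.1.2, 7 and 9. Levels of 6.98 in ESC, 7.29 in LinPos_iPSC and 7.05 in MEF_iPSC were alike. The lines were at least 2.53-fold higher than the marrow (difference as measured 2.41, SE 0.17, limma adjusted p = 0.000269), with a range of 1.38 to 3.99 over the same settings. Kif3a and Kifap3 encode a motor and the accessory subunit of kinesin-2, which moves cargo in cilia. Kif3a stood at 6.86 in LinNeg_BM and 8.81, 9.05 and 9.08 in the lines, a 4.34-fold rise (difference 2.12, SE 0.19, adjusted p = 0.000583), though a second probe did not rise, and with both averaged the difference was 1.04. Kifap3 went from 7.51 to 9.23, 9.30 and 9.28, a 3.39-fold rise (difference 1.76, SE 0.16, adjusted p = 0.000607). The other motors of that complex did not pass: Kif3b was above background in 2 of 3 lines and not in the marrow, with a difference of 0.45 (SE 0.22, adjusted p = 0.13), and Kif3c differed by 0.49 (SE 0.17, adjusted p = 0.0532). Kif1a, a fast vesicle motor of axons, and Kif21a, which steadies microtubule ends, were both below background in the marrow. The lines stood at 5.92 ± 0.26 and 5.68 ± 0.07 (n = 3), so that Kif1a was higher by at least 1.21-fold and Kif21a by at least 1.02-fold, and both calls rest on values near background. Kifc2, a minus-end motor, was at least 1.28-fold higher on the same basis (limma adjusted p = 0.0358), but the call was lost with normexp background correction (0.38, adjusted p = 0.0678), without a filter on dim probes (adjusted p = 0.0508) and without line 1.1.2 or line 9 (adjusted p = 0.0717 and adjusted p = 0.0595). Kifbp, a protein that binds kinesins and blocks them, fell by 0.75 (SE 0.21, adjusted p = 0.0293), from 7.00 to 6.03, 6.40 and 6.33. Kif13a, Kif1b, Kif2a, Kif5a and Kifc3 did not pass, with differences from -0.67 (Kif13a) to 0.11 (Kif2a), and Kif5a and Kifc3 were below background in the marrow and in all 3 lines. Of the neuronal marker list 3 of 10 genes were measured. In LinNeg_BM 0 of these were above background, and in the cultures 1 to 3, with Elavl3 above it in MEF_iPSC alone; their part in the kinesin values was not tested.

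The 13 genes below background on all arrays were Bub1, Cenpc1, Cenpe, Cenpo, Kif12, Kif17, Kif1c, Kif20a, Kif27, Kif2b, Kif5b, Kif9 and Nuf2. Kif20a, Cenpe, Bub1 and Nuf2 work in every dividing cell and Kif5b in nearly every cell type, so a probe below background here does not show that the transcript was lacking. Just inside the threshold were Kif3b and Kif21a, with lowest detection p-values of 0.00376 and 0.00251, and just outside it Kif27 and Kif17, at 0.0201 and 0.0226.

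Where a gene had several probes above background (13 genes, 34 probes), the brightest stood for it. In the comparison with marrow all probes of a gene pointed the same way for 11 of the 13. The exceptions were Kif3a, with 2.12 for the bright probe and -0.03 for the other, and Kif4, with -0.33, -0.10 and 0.06. For Kif3a the dim probe lay between 6.74 and 7.24 on all 7 arrays, so its rise rests on 1 of 2 probes. Cdc20 rose on all 4 probes, by 0.68, 0.76, 0.93 and 2.51, and the size of its rise therefore depends on the probe. All 3 probes of Cenpm rose, by 1.13, 1.20 and 1.00, and for Kifap3 the probes at 1.76 and 1.07 rose, while the one at 0.86 did not pass (limma over all probes, adjusted p = 0.0618). The 3 Birc5 probes differed by -0.54, -0.40 and -0.38, of which the first passed. For Kif18b the brightest probe (0.35) did not pass, while another did (0.66, limma over all probes, adjusted p = 0.0244). Against ESC, MEF_iPSC and LinPos_iPSC the probes pointed the same way for only 5, 9 and 4 of the 13 genes. The 2 Cenpx probes differed from ESC by -0.63 and 0.66, so small differences between cultures depend on the probe.

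**Figure D4:**
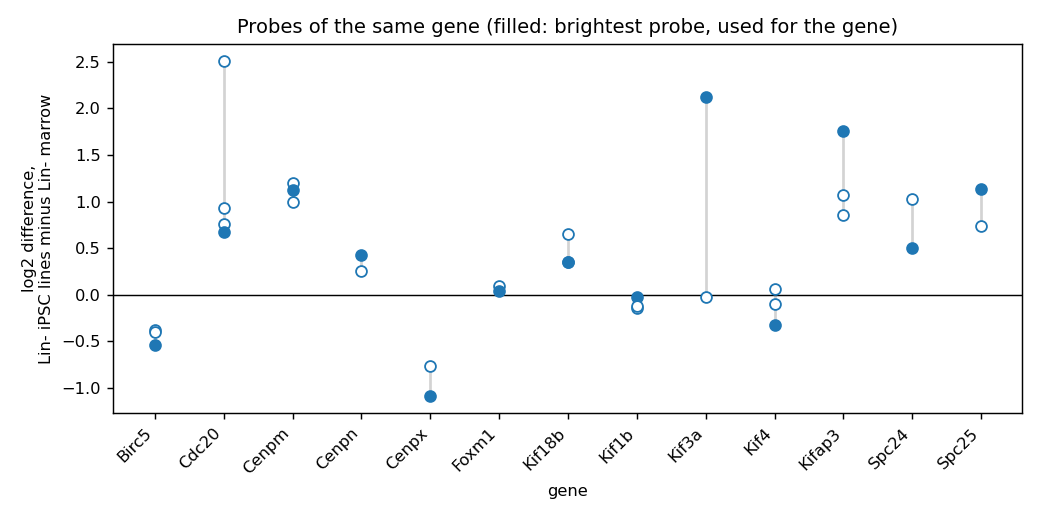
Log2 difference between the LinNeg_iPSC lines and LinNeg_BM (vertical axis) for every probe of the 13 members with more than 1 probe above background (horizontal axis); filled points are the brightest probe. The probes of Kif3a (2.12 and -0.03) and of Cdc20 (0.68 to 2.51) are the only ones more than 1 log2 unit apart.

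Other genes of the mitotic apparatus, taken from a list that held no member, split in the same comparison. Of 37 measured, 12 rose, 7 fell and 18 did not pass, with a median of 0.27 and a median absolute difference of 0.59. Across all genes tested 59.6% passed and the median absolute difference was 0.83. Melk, a kinase of dividing progenitors, was below background in LinNeg_BM at 5.31 and reached 8.44 ± 0.25 (n = 3) in the lines, a rise of at least 6.92-fold on this scale (difference as measured 3.13, limma adjusted p = 0.000343). The Melk difference was 1.98 with its probes averaged and 2.11 with normexp background correction, so its size depends on the probe and the background method. Mybl2, the B-MYB factor that acts through the CHR complexes, rose from 9.77 to 12.63 ± 0.29 (n = 3), or 7.27-fold (limma, adjusted p = 0.000635). Zwilch, which recruits dynein to kinetochores, rose 3.79-fold and Gtse1, a microtubule-binding protein of G2 and M phase, 3.40-fold. The widest of the 7 falls were in Cdc25b (-1.45), Mis12 (-1.12) and Numa1 (-1.02). Cdc25b and Mis12 were below background in all 3 lines.

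The other 3 comparisons asked whether the marrow-derived lines differed from ESC or from iPSCs of other origins. No member passed in any of them. Against ESC 0% of all genes passed in limma. Against MEF_iPSC 0.0756% passed, 0.054% higher and 0.0216% lower in the lines, and against LinPos_iPSC 0.313%, 0.281% higher and 0.0324% lower. At an unadjusted p under 0.05 there were 8, 8 and 4 of the 50 members, beside 10.3%, 13% and 16.2% of all genes. Median absolute differences were 0.25, 0.17 and 0.20 over members and 0.20, 0.21 and 0.23 over all genes. These comparisons share the 3 lines. Over the 6 cultures, the median SD of the 41 members above background on all 6 was 0.17, beside 0.22 for 6637 genes.

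**Figure D5:**
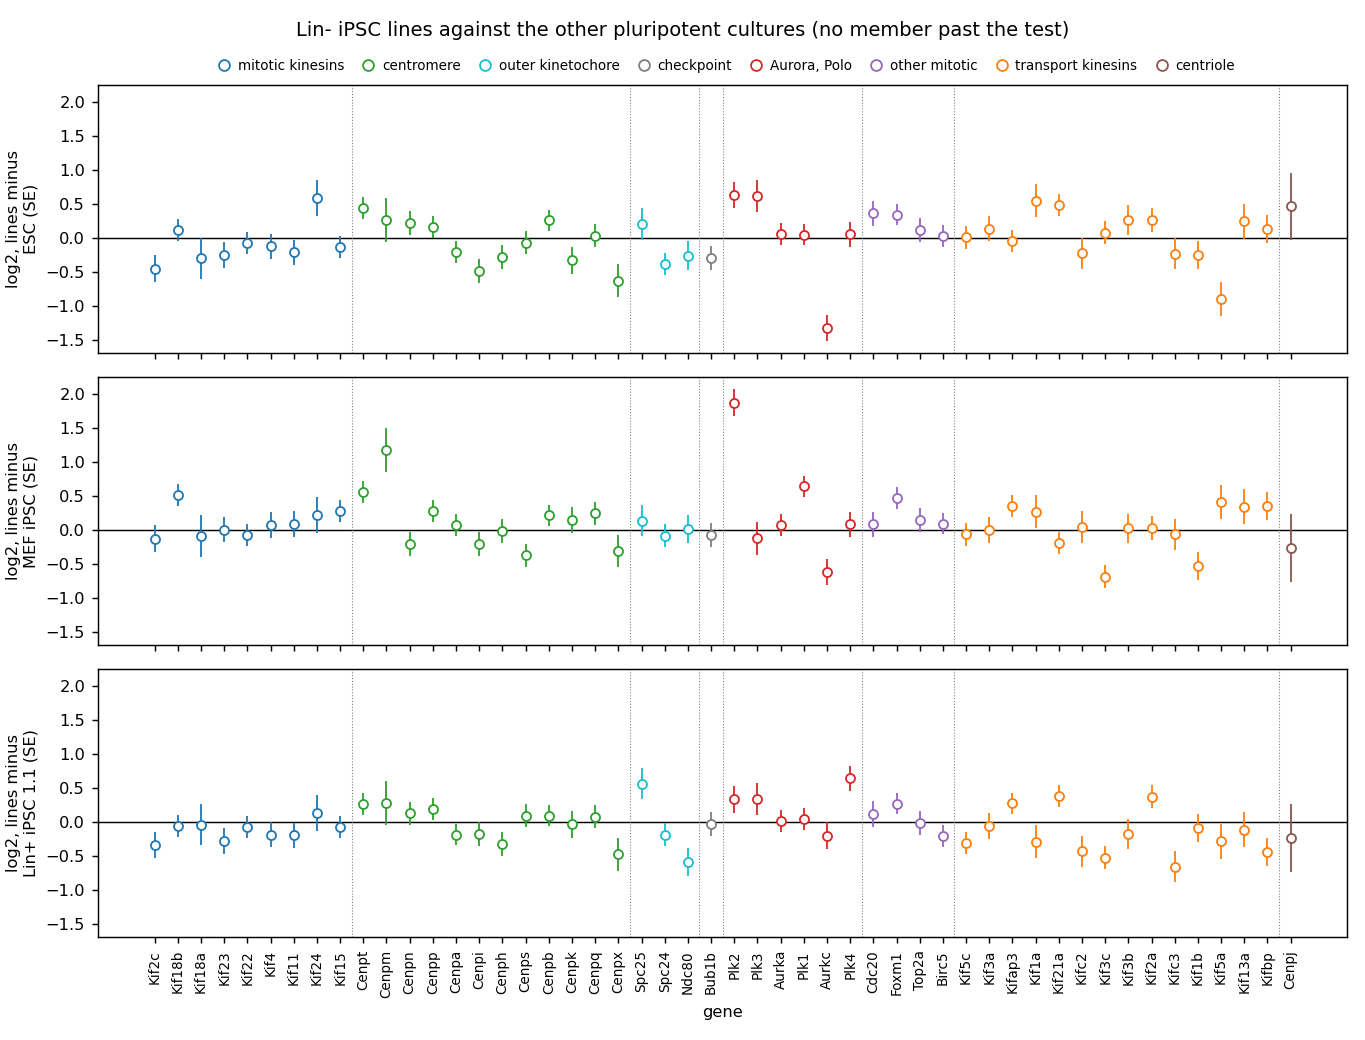
Log2 difference between the LinNeg_iPSC lines and ESC, MEF_iPSC and LinPos_iPSC (3 panels, shared vertical axis, SE bars) for the 50 members. None passed the test. The widest are Aurkc against ESC (-1.32) and Plk2 (1.87) and Cenpm (1.18) against MEF_iPSC, and Aurkc became a member only through the ESC array.

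Against ESC the widest difference was in Aurkc, at 6.09 in ESC and 4.66, 4.96 and 4.68 in lines 1.1.2, 7 and 9, all 3 below background. ESC was at least 1.46-fold higher (limma, adjusted p = 0.335), and LinNeg_BM, LinPos_iPSC and MEF_iPSC were below background as well. Kif5a, a neuronal kinesin, was likewise above background in ESC alone, at 6.12 and at least 1.5-fold higher than in the lines (adjusted p = 0.416). Aurkc and Kif5a became members only through the ESC array, so a higher value in ESC was built in by the rule. Plk2 and Plk3 stood 0.64 and 0.62 higher in the lines than in ESC (adjusted p = 0.435 and adjusted p = 0.483), with every line above ESC for both. Among mitotic kinesins 7 of 9 lay below 0, with a median of -0.13. Over all genes 4556 of 9263 lay above 0, with a median of -0.007. Kif2c differed by -0.45 (SE 0.20, limma adjusted p = 0.508). Under common-median scaling the median of all genes against ESC was -0.16, so differences of that size have no settled direction.

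MEF_iPSC was the lowest of the 6 cultures for Plk2, which is kept apart from the mitotic members, and for several mitotic members. Plk2 stood at 6.59 there and at 7.83 or above in the other cultures, a difference from the lines of 1.87, or 3.67-fold (SE 0.19, limma adjusted p = 0.0837). It passed with normexp background correction (1.44, adjusted p = 0.00776), with common-median scaling (1.73, adjusted p = 0.0458) and with a variance trend (adjusted p = 0.0248). The highest adjusted p of Plk2 was 0.244, without line 9. Cenpm differed by 1.18 (SE 0.32, adjusted p = 0.265), and its other probes by 1.20 and 1.01. Plk1, at 10.61, was 0.64 lower than the lines (SE 0.16, adjusted p = 0.236), while the other 5 cultures lay between 11.21 and 11.29. Kif18b, Cenpt and Foxm1 were 0.51, 0.56 and 0.47 higher in the lines (adjusted p = 0.31, adjusted p = 0.288 and adjusted p = 0.331), whereas the second Foxm1 probe differed by 0.10. Kif3c went the other way, at 8.14 in MEF_iPSC and 7.46 ± 0.10 (n = 3) in the lines. For 30 mitotic members above background on all 7 arrays, the median deviation from each gene's mean over the 6 cultures was -0.11 in MEF_iPSC, with 9 of 30 above that mean. It was between -0.01 and 0.09 in the other cultures and -0.26 in LinNeg_BM, with 11 of 30 above. Over 5825 genes it was between -0.03 and 0.02 on all 7 arrays, and their share above that mean was not counted. With common-median scaling the median of lines minus MEF_iPSC moved from 0.075 to -0.060 over the 50 members. Over all genes it moved from -0.0006 to -0.089, so differences of that size have no settled direction.

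Against LinPos_iPSC the widest gaps were in Kifc3, Plk4 and Ndc80. Plk4 stood at 7.38 in LinPos_iPSC and at 7.98, 7.92 and 8.17 in lines 1.1.2, 7 and 9, a difference of 0.64 (SE 0.18, limma adjusted p = 0.207), and ESC (7.97) and MEF_iPSC (7.94) sided with the lines. Ndc80 was higher in LinPos_iPSC, at 9.71 against 9.21, 9.26 and 8.91 (difference -0.59, SE 0.21, adjusted p = 0.272). Kifc3, a minus-end motor, was above background in LinPos_iPSC alone, at least 1.29-fold over the lines (adjusted p = 0.265). Kifc3 became a member only through that array, so its gap was built in by the rule. Spc25 differed by 0.56 (SE 0.23, adjusted p = 0.326). Of the 14 transport kinesins, Kifc3 included, 11 lay below 0, with a median of -0.23. Over all genes 4723 of 9263 lay above 0, with a median of 0.008.

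On chromosome 8 a shift of the whole chromosome was measured beside their values. Over 332 genes of that chromosome above background on all arrays, the median difference from ESC was 0.09, 0.25 and 0.37 in lines 1.1.2, 7 and 9, 0.42 in MEF_iPSC and 0.03 in LinPos_iPSC. Cenpt, Kifc3 and Cenpn lie there. Cenpn, an inner kinetochore subunit singled out after its values were seen, stood at 9.57 in ESC, 9.85, 9.67 and 9.86 in the lines and 9.67 in LinPos_iPSC, with the highest value in MEF_iPSC. Cenpt was lowest of the cultures in MEF_iPSC, at 11.26. On chromosome 14, over 187 genes, line 1.1.2 was 0.03 above ESC and the other 5 arrays 0.17 to 0.25 above it. The member there is Cenpj, which despite its name serves centriole growth and not the centromere. It was below background in ESC (4.92) and line 1.1.2 (4.64) and lay between 5.62 and 6.36 on the other arrays. The part of these chromosome shifts in the members' values was not tested.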

How the data were processed

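The deposited non-normalized table held an intensity per probe and array on a linear scale, with medians of 103 to 134.9, and a detection p-value beside each. A second deposited table held log2 values with the same distribution on every array and was used as an alternative. Per the submitters' processing notes the tools included BeadStudio 3.2, lumi and RMA. Their roles and settings are not given in the sources used here. Intensities were background-corrected with controls inferred from detection p-values by neqc of limma 3.58.1, which added an offset of 16, normalized the arrays to common quantiles and took log2. Of 25697 probes 23978 had 1 gene symbol in the platform annotation, and 13427 probes were above background on at least 1 array. The probe with the highest mean stood for its gene. limma was fitted to 9263 genes in 5 groups (2 residual and 3.18 prior degrees of freedom), with Benjamini-Hochberg adjustment over all genes and a threshold of 0.05, and was tested on simulated data. The spread comes from the 3 LinNeg_iPSC lines, so each lone array is assumed to vary like them, and the number of arrays limits the precision. A fold of "at least" sets values below background to the higher of themselves and the lowest value above background on that array. Genes were placed on chromosomes by gene identifier with a GRCm38.p6 table. Named genes were taken from a fixed set, up to 4 members of each role list with the widest difference per comparison, and the 6 with the largest SD over the cultures. The members, lists and rule were chosen with earlier results of these data known. Alternatives were the background method, the scaling, the filter, the choice of probe, the authors' log2 values, a variance trend, leaving out each line, and the 6 pluripotent arrays as 1 group.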

Additional observations from a re-analysis of the deposited data

Results flagged for a closer look

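Among the 6 cultures labelled pluripotent, 41 members were above background on all 6, and for 6 of them 1 array lay far from the other 5 by Dixon's criterion. About 1 in 20 such groups is flagged by chance. The share of all genes flagged by the same criterion is not given here, so the count is not read as a trait of the members. Low values stood out for Plk1 in MEF_iPSC (10.61), Kif18b in MEF_iPSC (9.46), Plk4 in LinPos_iPSC (7.38) and Kif18a, a kinesin that damps chromosome movement, in line 1.1.2 (8.46). High values stood out for Cenps, an inner kinetochore subunit, in MEF_iPSC (9.35) and Aurka in line 7 (11.62). Aurka varied least of the 41 members, with an SD over the 6 arrays of 0.05, and the other probes of Kif18b were also lowest of the cultures in MEF_iPSC, at 8.93 and 8.11.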

How the results depend on the processing

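Against LinNeg_BM the 16 rises became 10 after common-median scaling of the arrays and stayed between 12 and 19 under the other settings, 12 to 15 of them without 1 line. The 5 falls became 15 with common-median scaling, 11 with cyclic loess, 2 with the authors' log2 values and 1 to 3 without 1 line (3 without line 1.1.2, 3 without line 7, 1 without line 9), so that the count of falls depends on single lines. Gained as falls under both common-median scaling and cyclic loess were Cenpb, Cenpk, Kif11, Kif13a, Kif4 and Plk4. Kif13a was also gained without line 7 and with the 6 cultures as 1 group. Common-median scaling alone added Kif22, Top2a, Cenps and Foxm1. Gained as rises were Bub1b, Cenpa and Cenpn with the variance trend. Kif3c was gained as a rise with cyclic loess, with probes averaged and with a filter of at least 3 arrays. Calls were lost for Birc5, Cenpq and Spc24 whichever line was left out, for Cdc20 without line 1.1.2 or 9, for Kifc2 without line 1.1.2 or 9, for Kif15 without line 7 or 9, and for Cenpm and Kifbp without line 9, at adjusted p from 0.0502 to 0.104. Over all genes the calls ranged from 0 to 91 against MEF_iPSC, where 7 were reported, and from 0 to 218 against LinPos_iPSC, where 29 were. With each probe counted on its own, an alternative chosen after seeing the data, 24 of 71 probes rose and 6 fell. Against MEF_iPSC 1 member, Plk2, passed as higher in the lines with normexp background correction, common-median scaling and the variance trend, and 0 under the other settings; against ESC and LinPos_iPSC no member passed in limma under any setting run. Common-median scaling moved the median of all genes to -0.39 against LinNeg_BM, -0.16 against ESC, -0.12 against LinPos_iPSC and -0.089 against MEF_iPSC. Against MEF_iPSC that scaling moved the members' median from 0.075 to -0.060. Sign changes were sought for all 50 members against LinNeg_BM and for the 32, 30 and 28 named genes against ESC, MEF_iPSC and LinPos_iPSC, and are given where the shift exceeded 1 SE or either value passed. Under that scaling differences from LinNeg_BM changed sign for Bub1b (-0.26), Cenpa (-0.069), Cenph (-0.48), Cenpi (-0.40), Cenpn (-0.25), Cenpp (-0.30), Cenps (-0.63) and Foxm1 (-0.59), the last 2 past the test, and for Kif18a (-0.40), Kif18b (-0.30), Kif23 (-0.47), Kif2a (-0.47), Ndc80 (-0.49) and Spc24 (-0.17), from ESC for Aurka (-0.21), Birc5 (-0.23), Plk1 (-0.23), Spc25 (-0.035) and Top2a (-0.15), and from LinPos_iPSC for Aurka (-0.18), Cdc20 (-0.0902) and Plk1 (-0.18). Cyclic loess turned Cenpa (-0.00411), Cenph (-0.048), Cenps (-0.19), Foxm1 (-0.13), Kif23 (-0.10) and Ndc80 (-0.060) against LinNeg_BM, and the 6 cultures as 1 group turned Foxm1 (-0.14). With a gene's probes averaged, Cenpx against ESC became 0.016 and Spc24 against LinPos_iPSC 0.059. Of these reversed differences only that of Spc24 against LinNeg_BM had passed the test. The cause of the reversals, apart from the shift of all genes, was not tested. Sign changes within 1 SE and not past the test are not listed. They numbered 17 against MEF_iPSC, 6 against LinNeg_BM, 3 against ESC and 4 against LinPos_iPSC. Signal over background limits Kif1a, Kif21a, Kifc2, Kif3b, Kifc3, Kif5a and Aurkc, which were near or below it on most arrays. No paired analysis was possible because only 1 group has more than 1 array.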
